A study of Mus musculus with 12 samples.

Results

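The comparison described here sets microglia of ZEB1 knock-down mice against microglia of wild type mice before any ischaemia. It rests on 4 single-colour microarrays of the 12 in the series, 2 for each genotype. The 4 were chosen by their labels alone. All came from male mice aged 8 weeks whose treatment is labelled control, sampled ahead of transient middle cerebral artery occlusion (tMCAO), the stroke model in which the artery is blocked for a time and then reopened. The cells were enriched on magnetic columns by the fractalkine receptor CX3CR1, and total RNA was labelled with the dye Cy3. The construct behind the knock-down, the promoter that drives it, and whether other brain cells carry it are not given in the sources used here. The labels call the arrays separate replicates without saying whether separate animals supplied them, so p-values measure only the spread between arrays, which may be technical. That spread was pooled over the 8 arrays of the slide, 2 each of these groups, of ZEB1 knock-down after tMCAO and of ZEB1 overexpression before tMCAO. The 4 arrays outside the comparison had 18.2% to 23.7% of spots marked for poor quality.

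ZEB1 is a zinc-finger transcription factor that binds E-box sequences and mostly represses its targets. It is best known for silencing epithelial genes such as the cadherin gene Cdh1 during epithelial-mesenchymal transition, a change that transforming growth factor beta (TGF-beta) can set off. Its paralog ZEB2 binds the same kind of site and is abundant in microglia, the resident macrophages of the brain. Microglia also depend on TGF-beta signalling for their resting state.

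Each probe's log2 level is the log2 of its background-corrected fluorescence minus the 75th percentile of its array, so that 0 is the signal of that percentile. A difference is the mean level of the knock-down arrays minus that of the wild type arrays. Of 56605 probes, 33767 carried a gene symbol through RefSeq. After dim probes were left out, 30352 genes and accessions were tested, 17915 of them with a symbol. No gene passed an adjusted p of 0.05 (Benjamini-Hochberg) in limma, a linear model with pooled variances, fitted to all 8 arrays of the slide (0% of 30352). The smallest adjusted p in that fit was 0.168, that of Alpk2, which encodes an alpha-kinase and was not well above background in wild type. With the 4 compared arrays alone it was 0.341. An unadjusted limma p under 0.05 was found for 2653 genes (8.74%): 348 were higher and 2305 lower in the knock-down, 1.15% and 7.59% of those tested. The lower genes were 86.9% of these, but 70.3% after quantile normalisation and 67.0% with arrays centred on their medians, which moved the median of all genes from -0.07 to 0.01 and 0.12. In what follows, "higher on both knock-down arrays" means that both lie above both wild type arrays, which held for 3943 genes (13%). The opposite order, "lower on both knock-down arrays", held for 8887 genes (29.3%). A difference below 0 was found for 18661 of the 30352 (61.5%). That share was 48.4% after quantile normalisation and 32.3% with arrays centred on their medians. Counts in the gene groups below are to be read against these shares, since no single gene passed the test.

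The 4 arrays were similar in brightness, with 75th percentiles from 3306 to 3702 fluorescence units. Between 66.0% and 73.5% of their spots lay well above background, the lowest share on knock-down array 2, and 1.03% to 3.29% of spots bore a software mark of poor quality. Across 29027 genes the wild type pair correlated at 0.9871 and the knock-down pair at 0.9897. Wild type array 2 correlated at 0.9886 with knock-down array 1, above its correlation with wild type array 1. The wild type arrays shared 1 row of the slide and the knock-down arrays the other, so that slide row and genotype cannot be told apart.

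No difference in the Zeb1 transcript was detected between the genotypes. On the brighter of its 2 probes, the log2 level was -0.57 and -0.59 on the wild type arrays and -0.11 and -0.79 on the knock-down arrays. The knock-down arrays thus lay on either side of the wild type pair. The difference was 0.13 ± 0.27 (SE, 2 arrays a group), with a 95% interval from -0.61 to 0.88 and an adjusted p of 0.954 in limma. A difference of 1 on the log2 scale in the direction of a knock-down lies outside this interval. Without knock-down array 1 the Zeb1 difference was -0.21. The other probe gave 0.06, from -0.40 and -0.64 in wild type and -0.24 and -0.68 in knock-down. The files do not say which part of the transcript the knock-down acts on, so these probes may not check the label.

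Zeb2, the paralog, was measured by 3 probes. The brightest read 2.14 and 2.15 in wild type and 2.23 and 2.0 in knock-down, a difference of -0.03 ± 0.16 (SE) whose groups overlap. The 2 other Zeb2 probes differed by -0.07 and 0.17. Of 6 tested genes of the Zeb, Snail and Twist repressors, which share the E-box site, 3 differences were above 0 and 3 below. Snai1, encoding the repressor Snail, had the lowest difference, -0.44, from -6.09 and -5.75 in wild type to -6.43 and -6.29 in knock-down. Both knock-down values lay below both wild type values, yet only 1 knock-down array had Snai1 above background. Snai2, encoding Slug, had the highest difference of this list, 0.49, and its groups overlapped.

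**Figure D1:**
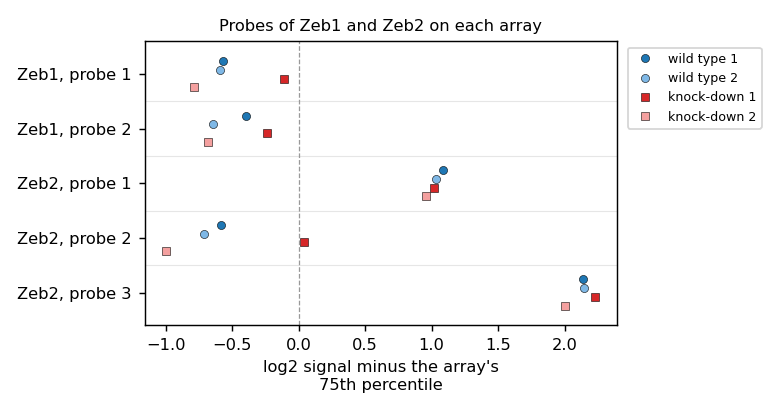
Log2 level (log2 signal minus the array's 75th percentile) of the 2 Zeb1 and 3 Zeb2 probes on each of the 4 arrays, circles for wild type and squares for knock-down. The knock-down squares of Zeb1 probe 1 (-0.11 and -0.79) lie on both sides of the wild type circles (-0.57 and -0.59).

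The epithelial genes that ZEB1 is known to repress were next examined. Of 30 listed genes 27 were tested, and 16 had a difference above 0. Their median was 0.17, beside -0.07 over all genes tested. Higher on both knock-down arrays were 7 (13% of all genes were), lower on both were 3, and no member had an unadjusted limma p under 0.05. The median was 0.02 without knock-down array 2 and 0.03 without wild type array 1. Promoter sequences were available from RefSeq (GRCm38.p6) for 19 of the 30 genes. In the 250 bases before the transcription start, 14 of these 19 genes (73.7%) held the E-box CACCTG on either strand, where the other strand reads CAGGTG; of 27025 symbols with a promoter, 19.4% did. The list was assembled from known targets of ZEB1 and related repressors, so this share describes the list and is not a finding. Among the 18 of them that were tested, the median difference was 0.28 over 13 genes with the motif and 0.11 over 5 without. Differences above 0 numbered 10 of the 13 and 3 of the 5. Cldn3, with the highest difference of the list (0.72), held 0 motifs, while Elf3 (-0.49) and Cldn4 (-0.31) each held 1. Whether the motif goes with the difference was not tested. The promoters of Epcam and Krt18 are shown because these genes were higher on both knock-down arrays and hold the motif, in capitals. Epcam lies on the plus strand at chr17:87635729-87635978 and Krt18 on the plus strand at chr15:102027966-102028215.
Epcam: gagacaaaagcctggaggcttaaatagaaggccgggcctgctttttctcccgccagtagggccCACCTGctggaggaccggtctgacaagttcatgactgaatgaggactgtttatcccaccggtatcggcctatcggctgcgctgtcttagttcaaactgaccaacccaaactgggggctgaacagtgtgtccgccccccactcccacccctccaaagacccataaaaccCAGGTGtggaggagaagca
Krt18: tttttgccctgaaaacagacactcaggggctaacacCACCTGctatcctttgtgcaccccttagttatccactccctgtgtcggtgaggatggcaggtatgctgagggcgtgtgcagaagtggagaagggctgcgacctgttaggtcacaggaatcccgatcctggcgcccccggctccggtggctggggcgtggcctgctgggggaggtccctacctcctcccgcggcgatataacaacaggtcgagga
The Epcam window holds 2 copies, 1 in each orientation, and the Krt18 window 1.

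Krt18, which encodes a keratin of simple epithelia, read -1.52 and -1.71 in wild type and -1.36 and -0.88 in knock-down, a difference of 0.50 ± 0.28 (SE). Its keratin partner Krt8 read -3.47 and -3.37 against -3.41 and -2.48, a difference of 0.48 ± 0.37. Epcam, the epithelial cell adhesion molecule, read -4.09 and -4.22 against -3.97 and -3.39, a difference of 0.47 ± 0.97. In all 3, knock-down array 2 was the highest of the 4, and knock-down array 1 lay close to the wild type arrays, inside their range for Krt8. The highest difference of the list was that of the tight-junction gene Cldn3, 0.72 ± 0.42, from -5.90 and -5.69 in wild type to -5.45 and -4.71 in knock-down. Here too the groups did not overlap. The lowest was that of Llgl2, a cell polarity gene, at -0.68 ± 0.33, from -1.43 and -1.35 to -2.17 and -1.96. Cdh1, the classic ZEB1 target, differed by 0.22. Choroid plexus, an epithelium of the brain's ventricles, expresses several of these genes, and 6 of 12 choroid plexus and ependymal markers were also higher on both knock-down arrays. Their role in the epithelial values was not tested.

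Mesenchymal genes, known to rise in epithelial-mesenchymal transition, lay mostly on the other side of 0. Of 15 tested, 12 had a difference below 0 (61.5% of all genes did) and the median was -0.30. Lower on both knock-down arrays were 9 (29.3% of all genes were), and 1 was higher on both. Col3a1, a fibrillar collagen gene of blood vessel walls and meninges, had the lowest difference of the list at -0.96 ± 0.36 (SE; limma adjusted p = 0.52). Its levels were -1.13 and -0.89 in wild type and -2.31 and -1.64 in knock-down, without overlap. Markers of endothelial and mural cells, the cells of vessel walls, had a median of -0.26, with 17 of 19 differences below 0 and 9 lower on both knock-down arrays. In that list Des, encoding desmin, had the smallest limma p (adjusted p = 0.508), at -3.71 and -4.07 in wild type and -4.5 and -4.31 in knock-down. The summed linear signal of the 17 markers measured on all arrays, as log2, was 4.75 and 4.49 in wild type and 4.42 and 4.5 in knock-down. In the endothelial and mural list wild type array 1 was the highest of the 4 for 15 of 17 genes measured on all, and without it the median was -0.08.

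Genes of the TGF-beta pathway showed no common shift. Among the ligands, Tgfb1 differed by -0.48 ± 0.29 (SE), at -4.30 and -4.25 in wild type and -4.94 and -4.57 in knock-down, while Tgfb2 differed by 0.20. Tgfb1 was lower and Tgfb2 higher on both knock-down arrays. Among the nuclear regulators, Tgif1, a corepressor of SMAD proteins, had the lowest difference of the list at -0.52 ± 0.23. The highest, 0.71 for the inhibitory Smad7, rests on 1 knock-down array. Of the 23 genes tested, 16 had a difference below 0, with a median of -0.08 that is near the -0.07 of all genes.

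The microglial label was checked against markers. Of 27 homeostatic microglia genes tested, 26 were well above background on all 4 arrays. Markers of other brain cells were equally detectable: 20 of 20 neuron, 14 of 14 astrocyte, 16 of 16 oligodendrocyte lineage and 19 of 19 endothelial and mural markers lay above background on all 4 arrays. The summed linear signal of the homeostatic microglia list, as log2, was 6.42 and 6.44 in wild type and 6.23 and 6.28 in knock-down. That of the neuron list was 6.76 and 6.81 against 6.74 and 6.79, and that of the astrocyte list 6.48 and 6.56 against 6.39 and 6.33. The oligodendrocyte lineage list summed to 6.20 and 6.0 against 5.87 and 5.85. The microglia, astrocyte and oligodendrocyte sums were lower on both knock-down arrays, while the neuron sums overlapped. RNA of other brain cells was thus abundant in both genotypes, and the microglia sum did not exceed the neuron or astrocyte sum on any array. The sums run over the 22 microglia, 17 neuron, 14 astrocyte and 16 oligodendrocyte lineage genes measured on all 4 arrays, which leaves out P2ry12 and Siglech. They come from different probes, so they do not give the share of microglia. In these bulk samples fewer cells of a type and less RNA per cell cannot be told apart.

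Homeostatic microglia genes were more often lower than higher in the knock-down, by small amounts. Of 27 tested, 23 had a difference below 0, with a median of -0.22, or -0.13 without wild type array 1. Of the 22 measured on all arrays, 11 were lower on both knock-down arrays and 1, the transcription factor gene Mef2c, was higher on both. Cx3cr1, the receptor used for the sort, read 1.17 and 0.28 in wild type and 0.14 and 0.27 in knock-down. Wild type array 1 stood far above the other 3, and the difference of -0.52 ± 0.33 (SE) was the lowest of this list. Tmem119, a marker of resident microglia, read 0.48 and 0.37 against -0.05 and 0.25, a difference of -0.32 ± 0.18. Its groups did not overlap, by a small margin. The purinergic receptor P2ry12 was measured on 1 array of each group, at 1.03 in wild type and 1.31 in knock-down. Siglech, a lectin gene, had the highest difference of the list, 0.77, but only 1 wild type array measured it. Astrocyte and oligodendrocyte lineage markers had medians of -0.14 and -0.17, with 14 of 14 and 16 of 16 differences below 0. Wild type array 1 was the highest for 13 of 16 oligodendrocyte lineage markers, and without it their median was -0.02 and the astrocyte median -0.20. When arrays were centred on their medians in place of the 75th percentile, the homeostatic median was -0.02, the astrocyte median 0.05 and the oligodendrocyte median 0.01.

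Genes of disease-associated microglia, a state seen around damage and plaques, included members in both directions. Their median was -0.21 over 21 genes, or -0.03 with arrays centred on their medians. Of the 21, 11 were lower and 2 higher on both knock-down arrays. Ch25h, which makes 25-hydroxycholesterol from cholesterol, had the lowest difference, at -2.42 and -1.83 in wild type and -3.47 and -3.58 in knock-down. The gap between the groups was wider than the spread within either, and the difference was -1.40 ± 0.56 (SE; limma adjusted p = 0.579). Cst7, encoding the protease inhibitor cystatin F, read -4.26 and -4.03 against -4.66 and -4.82, a difference of -0.60 ± 0.18 (limma adjusted p = 0.451), the smallest p of the list. Lpl, encoding lipoprotein lipase, stood out the other way with 0.87 ± 0.31 (limma adjusted p = 0.524). It read -0.49 and -0.45 in wild type and 0.78 and 0.03 in knock-down. Both knock-down arrays lay above both wild type arrays but far from each other.

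**Figure D2:**
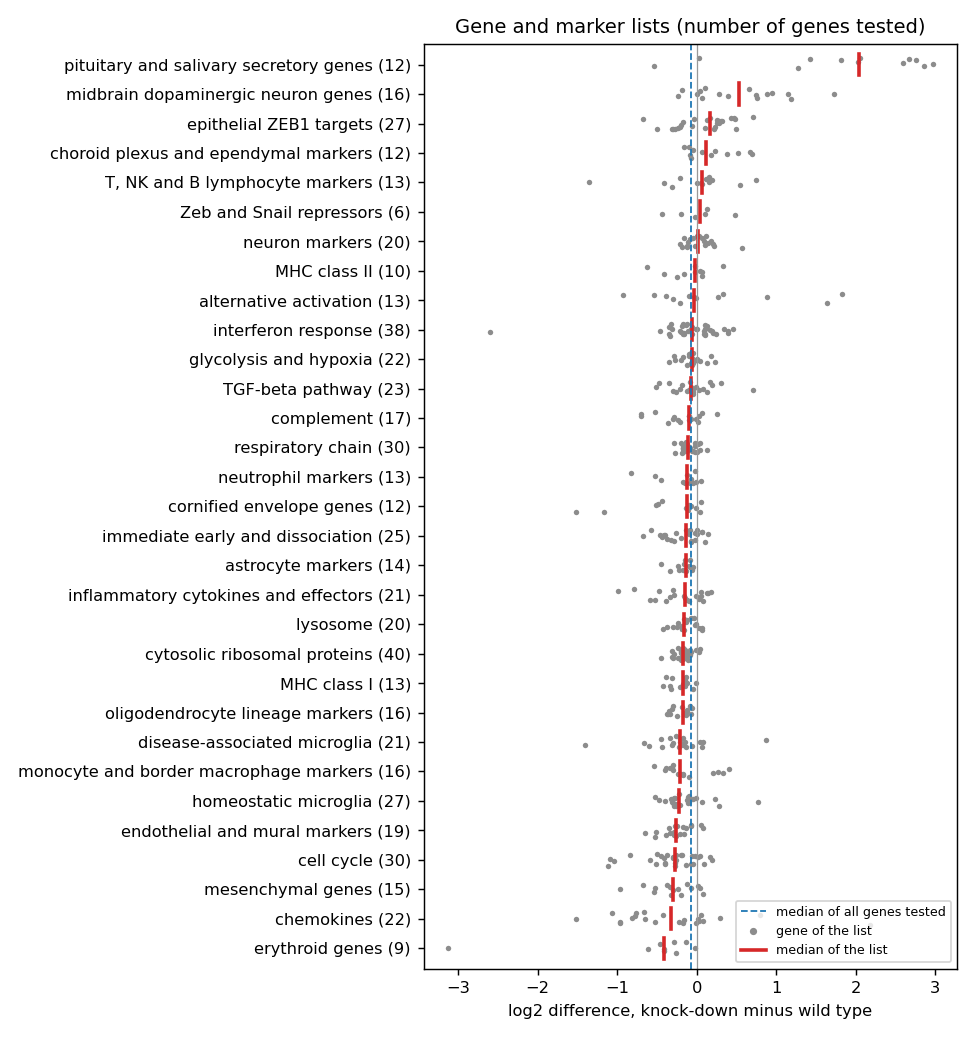
Log2 difference, knock-down minus wild type, of every tested gene (grey points, spread vertically at random) in each gene or marker list, with the number of genes tested in brackets, the list's median (red bar) and the median of all genes tested (-0.07, dashed line). The pituitary and salivary list (median 2.04) and the dopaminergic list (0.53) lie to the right, and most other medians lie between -0.40 and 0.17.

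Chemokine genes had a median of -0.32 over 22 genes, among the lowest of the pathway lists. Lower on both knock-down arrays were 8 and higher on both were 2. The monocyte-attracting Ccl9 had the smallest p, reading -0.19 and -0.32 in wild type and -0.83 and -1.61 in knock-down, a difference of -0.96 ± 0.29 (SE; limma adjusted p = 0.446). The related Ccl2 read -2.61 and -1.34 against -2.71 and -2.88, a difference of -0.82 ± 0.43. Ccl2 levels of wild type array 1 and the knock-down arrays were close together, and wild type array 2 was the one that stood apart. This was general to the list: wild type array 2 was the highest of the 4 for 13 of 22 chemokine genes, and without it the median was -0.03. Cxcl2, which attracts neutrophils, was not well above background in wild type, at -9.07 and -6.62, and read -5.44 and -5.90 in knock-down. It had the highest difference of the list, 2.18 ± 1.20 (limma adjusted p = 0.723), with a 95% interval from -0.74 to 5.1. The platelet gene Ppbp had the lowest, -1.51 ± 1.05, and its groups overlapped.

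The 2 wild type arrays differed from each other in neutrophil and immediate early genes. Over the neutrophil markers, wild type array 1 minus array 2 had a median of -1.83. The calprotectin gene S100a9 read 0.51 and 2.47 in wild type and 1.48 and 1.46 in knock-down. The knock-down arrays fell between the wild type arrays, and 1 of 12 neutrophil markers was lower on both knock-down arrays. The list's median difference was -0.13, but -1.05 without wild type array 1 and 0.71 without wild type array 2. Immediate early genes, transcribed within minutes of a stimulus including cell dissociation, were highest on wild type array 2 for 19 of 25 genes. Fos read -0.08 and 1.84 in wild type against -0.04 and 0.96 in knock-down, a difference of -0.42 ± 0.76 (SE) with overlapping groups. Zfp36, whose protein destabilises cytokine mRNAs, was lower on both knock-down arrays, at -2.54 and -2.12 in wild type and -2.98 and -3.02 in knock-down (difference -0.68 ± 0.20, limma adjusted p = 0.474). Ptgs2, the inducible cyclooxygenase gene, had the lowest difference among 21 inflammatory genes, -0.98 ± 0.62, again with wild type array 2 (0.54) apart from the others (-1.20, -1.27 and -1.36). The inflammatory list had a median of -0.14, with 7 genes lower and 1 higher on both knock-down arrays. Its highest difference, 0.18, was that of Casp1, encoding an inflammasome protease.

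Of 13 tested genes of alternative activation, 2 were higher on both knock-down arrays (13% of all genes were) and 5 were lower on both (29.3% were). The 2 higher ones, Acod1 and Il1rn, are tied to the control of inflammation. Acod1, which makes itaconate in activated macrophages, read -6.12 and -4.87 in wild type and -4.04 and -3.66 in knock-down, a difference of 1.64 ± 0.59 (SE; limma adjusted p = 0.499). Il1rn, encoding the interleukin-1 receptor antagonist, read -9.04 and -6.28 against -6.27 and -5.39, a difference of 1.83 ± 0.95, and only 1 wild type array had it above background. For both genes wild type array 1 was the lowest of the 4, and for Il1rn wild type array 2 and knock-down array 1 were nearly equal. The rest of the alternative activation list included values below 0, such as -0.53 ± 0.18 for the mannose receptor Mrc1 (limma adjusted p = 0.528) and -0.93 ± 0.89 for Retnla, the lowest of the list. The list's median over 13 genes was -0.03, but -0.27 without wild type array 1 and 0.21 without wild type array 2. Mrc1 is also a marker of border macrophages, whose list of 16 had a median of -0.22 (-0.39 without wild type array 1 and -0.10 without wild type array 2), with 7 lower and 0 higher on both knock-down arrays.

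Complement genes included 3 of 17 with an unadjusted limma p under 0.05, all lower in the knock-down (7.59% of all genes were lower at that threshold). Cfp, encoding properdin of the alternative pathway, read -0.49 and -0.42 in wild type and -1.26 and -1.04 in knock-down, a difference of -0.70 ± 0.18 (SE; limma adjusted p = 0.411). C1s1, a protease of the first complement component, read -3.09 and -3.24 against -3.85 and -3.88, a difference of -0.70 ± 0.24. C4b, encoding component C4, read 0.53 and 0.43 against 0.13 and -0.24, a difference of -0.53 ± 0.18. In each of the 3 the groups did not overlap. Cd55, an inhibitor of complement, had the highest difference, 0.25. The list's median was -0.10, with 6 lower and 1 higher on both knock-down arrays (29.3% and 13% of all genes were).

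Antigen presentation genes of class I had differences below 0 for 13 of 13, with a median of -0.17 and 7 lower on both knock-down arrays. H2-Q7 was the lowest at -0.43 ± 0.19 (SE) and H2-K1, measured on 1 wild type array, the highest at -0.00. The H2 genes are near-identical in sequence, so their probes may share signal. Class II genes had a median of -0.02, which was -0.37 without wild type array 1 and 0.28 without wild type array 2. The invariant chain gene Cd74 read -2.30 and -1.33 in wild type and -2.09 and -1.57 in knock-down, where each replicate 2 was the higher array of its group. H2-Ob had the smallest p of the class II list, at -3.57 and -3.57 in wild type and -3.82 and -4.13 in knock-down (-0.41 ± 0.16, limma adjusted p = 0.567). H2-Aa was the highest at 0.33 and H2-Oa the lowest at -0.62. Of 38 interferon response genes, 10 were lower and 4 higher on both knock-down arrays, with a median of -0.06, which was 0.04 without wild type array 1 and 0.03 without knock-down array 2. Iigp1, an immunity-related GTPase gene, was the highest at 0.46 ± 0.41. Ifi202b, a DNA-binding interferon-inducible gene, was the lowest and was well above background only in wild type, at -5.16 and -5.78 against -7.60 and -8.53. Against the lowest detectable signal of the knock-down arrays, that is at least 2.29-fold lower.

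Cell cycle genes had a median of -0.27 over 30 genes, with 25 differences below 0. Lower on both knock-down arrays were 16 of 30 (29.3% of all genes were), and 0 were higher on both. Mki67, the proliferation antigen, read -3.12 and -3.94 in wild type and -4.42 and -4.72 in knock-down, a difference of -1.04 ± 0.35 (SE; limma adjusted p = 0.498). Top2a, a topoisomerase of dividing cells, read -3.92 and -4.63 against -5.31 and -5.42, a difference of -1.09 ± 0.54. Both genes had their highest value on wild type array 1. Mcm3, part of the replicative helicase, had the smallest p, at -2.03 and -2.21 against -2.51 and -2.61 (-0.44 ± 0.14, limma adjusted p = 0.451). Birc5, encoding survivin, had a difference of -0.59 ± 0.22. The lowest difference, -1.11 for the checkpoint kinase gene Bub1, had overlapping groups and 0 knock-down arrays above background, and the highest was 0.20 for the cyclin gene Ccna2. Wild type array 1 was the highest of the 4 for 20 of the 30 genes. Over all settings tried, the cell cycle median stayed below 0, from -0.34 to -0.09.

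Housekeeping groups had smaller differences. Cytosolic ribosomal protein genes had 38 of 40 differences below 0, with a median of -0.17 and 22 of the 32 measured on all arrays lower on both knock-down arrays. They reached from -0.45 for Rpl37 to 0.05 for Rpl14, and wild type array 2 was the highest for 31 of 32. Respiratory chain genes had a median of -0.11 over 30 genes, from -0.28 for Ndufa2, measured on 1 wild type array, to 0.14 for Ndufv2. Glycolysis and hypoxia genes had a median of -0.06 over 22 genes, close to that of all genes, from -0.35 for Ddit4 to 0.23 for Vegfa. With each array centred on its median the ribosomal, respiratory and glycolysis medians were 0.01, 0.07 and 0.12, so their sign depends on the centring. Lysosomal genes had a median of -0.15 over 20 genes, with the protease gene Ctsk lowest at -0.43 ± 0.13 (SE; limma adjusted p = 0.426) and Ctsl highest at 0.07. The lysosomal median was 0.03 with that centring. The medians of class I (0.01), complement (0.08), inflammatory (0.04), interferon response (0.12), TGF-beta pathway (0.10) and cornified envelope genes (0.06) were then also above 0. Those of border macrophage (-0.03), endothelial and mural (-0.07), cell cycle (-0.09), mesenchymal (-0.11) and chemokine genes (-0.14) stayed below 0 but moved nearer to it.

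Small noncoding RNAs of the nucleus were the most uniform class. These are the uridine-rich RNAs of the spliceosome, the nucleolar and Cajal body RNAs that guide RNA modification, and the RNA parts of RNase P and RNase MRP. All 23 tested had a difference below 0, with a median of -0.68, and 20 were lower on both knock-down arrays (29.3% of all genes were). Scarna13, a Cajal body RNA, read 0.16 and 0.47 in wild type and -0.64 and -0.60 in knock-down, a difference of -0.93 ± 0.16 (SE; limma adjusted p = 0.411). Snora73a, a nucleolar RNA involved in ribosomal RNA processing, read 0.08 and 0.59 against -0.47 and -1.10, a difference of -1.12 ± 0.28. Rpph1, the RNA of RNase P, read -2.09 and -1.57 against -2.37 and -2.64, a difference of -0.68 ± 0.21. Unlike the cell cycle genes, these RNAs were mostly highest on wild type array 2. Rn7sk, which holds back the elongation factor P-TEFb, differed by -0.39 ± 0.31, and Snora74a by -0.14 with overlapping groups. Many of these RNAs come in several near-identical copies, so the named copy is uncertain. Over all settings tried the median of the class lay between -0.90 and -0.42.

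**Figure D3:**
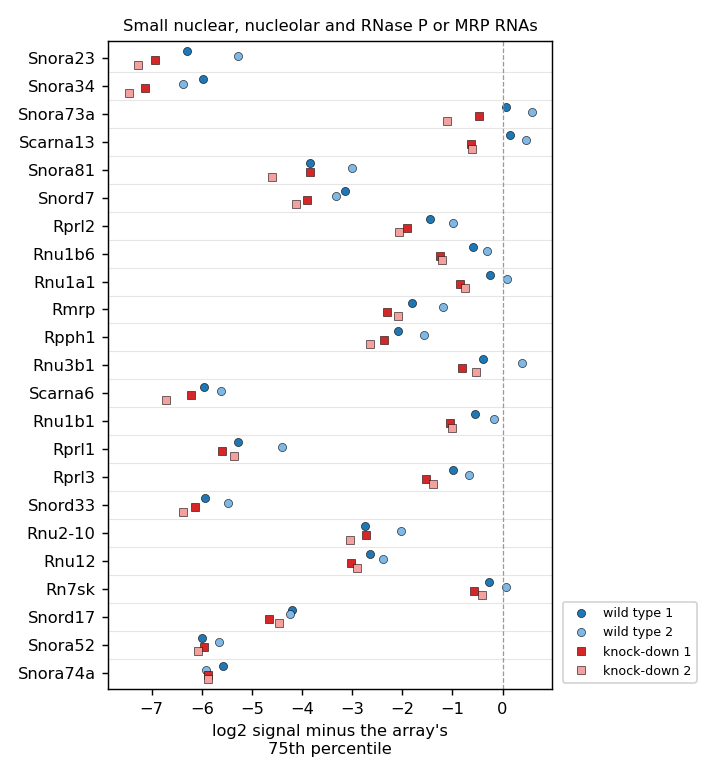
Log2 level of the 23 small nuclear, nucleolar and RNase P or MRP RNAs on each of the 4 arrays, ordered by their difference, circles for wild type and squares for knock-down. The squares lie left of the circles for 20 of the 23.

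Features without a gene symbol made up most of those lower in the knock-down. A difference at or below -1 was found for 1909 genes and accessions, and at or above 1 for 156. Of the 1909, 1562 were unnamed accessions, 161 were probes for genomic regions, 113 were protein-coding genes and 54 were long noncoding RNAs. The median levels of the 1562 unnamed accessions were -3.89 and -4.89 in wild type and -5.74 and -6.22 in knock-down. By these medians the wild type arrays were about as far from each other as wild type array 2 was from knock-down array 1. Wild type array 1 was the highest of the 4 arrays for 95.9% of these accessions. Of the 1562, 1529 were lower on both knock-down arrays, so that a wild type array had to be highest. Among all 8887 genes lower on both, wild type array 1 was above wild type array 2 for 61.2%. Without wild type array 1 the number of genes lower at an unadjusted limma p under 0.05 was 1026, and without knock-down array 2 it was 1252, in place of 2305. By class, the median difference was -0.03 for protein-coding genes, -0.13 for long noncoding RNAs, -0.12 for region probes and -0.16 for unnamed accessions. By level, it was -0.27 for features with a mean level under -5 and 0.00 for those between -1 and 1. The standard deviation of the negative control spots was 5.09 and 4.99 fluorescence units in wild type and 4.59 and 6.65 in knock-down. The part of background noise in this lower tail was not tested.

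**Figure D4:**
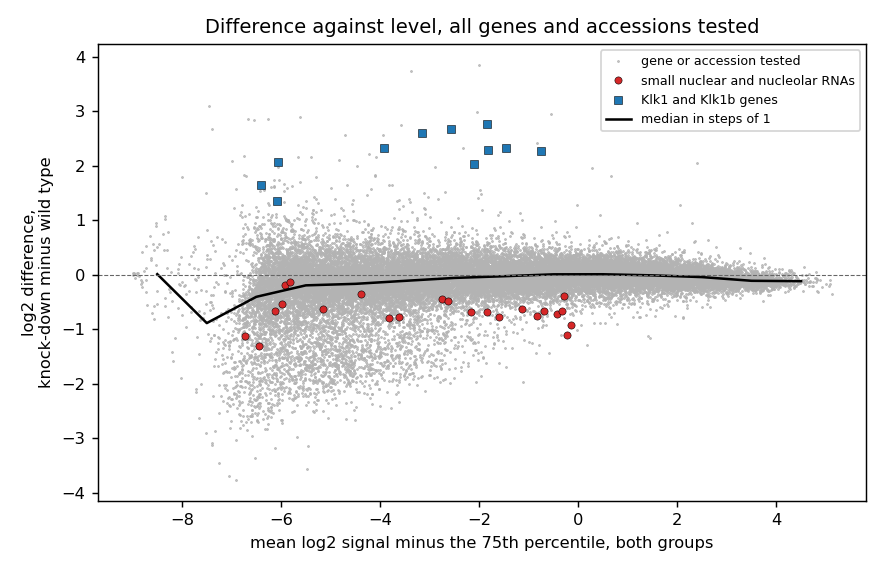
Log2 difference, knock-down minus wild type, against the mean log2 level of both groups for all 30352 genes and accessions tested (grey), with the small nuclear and nucleolar RNAs in red, the 11 Klk1 and Klk1b genes in blue and the median in steps of 1 as a line. A cloud of features extends below -1 at levels from about -7 to -3, with no like cloud above 1.

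The 10 lowest differences were taken from named genes above background on all 4 arrays whose groups did not overlap. Of these 10, 8 had their highest value on wild type array 1. Among all 8887 genes lower on both knock-down arrays, wild type array 1 was above wild type array 2 for 61.2%. Usp24, a deubiquitinase gene, read -2.77 and -3.80 in wild type and -5.52 and -5.90 in knock-down, a difference of -2.43 ± 0.36 (SE; limma adjusted p = 0.411). Lncpint, a long noncoding RNA induced by p53, read -1.37 and -2.66 against -4.08 and -4.24, a difference of -2.15 ± 0.45. Nrg3os, an antisense RNA at the neuregulin gene Nrg3, read -2.97 and -3.78 against -5.13 and -5.59, a difference of -1.99 ± 0.32. In these 3 genes wild type array 1 was highest and the knock-down arrays lay far below both wild type arrays. Carmn, a smooth muscle long noncoding RNA, Duxbl2, Hepacam2, Tmem181b-ps and Speer4b followed, with differences from -1.68 to -1.40. For Hepacam2 the wild type arrays read -3.14 and -5.44, and without wild type array 1 its difference was -0.34. For Lncpint, Hepacam2 and Retn, no other probe above background on at least 2 of the 4 arrays pointed the other way. Dimmer probes were not counted, so a second probe need not have agreed.

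Other genes lower on both knock-down arrays had wild type arrays close to each other. Retn, encoding the hormone resistin, read -0.08 and 0.34 in wild type and -1.49 and -1.13 in knock-down, a difference of -1.44 ± 0.25 (SE; limma adjusted p = 0.411). Fndc7, a fibronectin-domain gene, read -4.59 and -4.47 against -5.60 and -5.55, a difference of -1.04 ± 0.14 (limma adjusted p = 0.393). Otos, encoding otospiralin, read -3.47 and -3.26 against -4.24 and -4.33, a difference of -0.92 ± 0.16. For these genes the arrays of a genotype lay much closer to each other than to the other genotype. Knock-down array 2 had the lowest share of spots well above background of the 4 arrays (66.0%). Above background only in wild type were 47 of the 17915 tested genes with a symbol. Those with the smallest p were Flacc1 (at least 1.45-fold lower), the cornified envelope gene Sprr1a (at least 1.34-fold), the embryonic globin gene Hba-x (at least 1.79-fold), Ifi202b and Tex21 (at least 1.83-fold). Flacc1 read -6.14 and -6.11 in wild type and -7.33 and -7.21 in knock-down, with an adjusted limma p of 0.389. These bounds are the wild type mean over the knock-down arrays' lowest signal among probes well above background, or the gene's own signal where higher. They leave out the spread between arrays. Erythroid genes as a list had 9 of 9 differences below 0, a median of -0.40 and 2 lower on both knock-down arrays. Their median was -0.02 without knock-down array 1 and -0.72 without knock-down array 2. The adult globin gene Hba-a1 read 2.19 and 2.43 in wild type against 1.67 and 2.43 in knock-down, so only knock-down array 1 was low. Cornified envelope genes had a median of -0.13, with 4 of 12 lower on both knock-down arrays; their highest difference, 0.06, was that of Krt77.

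Among named genes above background on all 4 arrays whose groups did not overlap, the 10 highest differences belonged to pituitary hormones and tissue kallikreins. Tissue kallikreins are secreted proteases of salivary gland. Gh, encoding growth hormone, read 0.56 and 2.20 in wild type and 3.05 and 3.82 in knock-down, a difference of 2.05 ± 0.64 (SE; limma adjusted p = 0.500). Cga, the shared alpha subunit of the glycoprotein hormones, read -5.0 and -2.08 against -1.42 and 0.29, a difference of 2.98 ± 2.67. Klk1, the founding tissue kallikrein, read -4.78 and -1.65 against -1.26 and 0.34, a difference of 2.76 ± 2.13. In each, the wild type arrays differed from each other by more than wild type array 2 differed from knock-down array 1. All 11 tested Klk1 and Klk1b genes had differences above 0, from 1.35 to 2.76, and 9 were higher on both knock-down arrays (13% of all genes were). Members of this family are themselves among the 10 highest differences, so these counts are no independent support. Wild type array 1 was the lowest for 10 of the 11 and knock-down array 2 the highest for all 11. The Klk1b genes are close paralogs with similar sequences, so their probes may read each other's transcripts and are not independent.

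The list of pituitary and salivary secretory genes had a median of 2.04 over 12 genes, with 11 differences above 0. Higher on both knock-down arrays were 8 (13% of all genes were). Its members Gh, Cga, Klk1, Klk1b4, Klk1b8 and Klk1b22 are among the 10 highest differences, so these values are no independent support. Besides those named, Pomc, the precursor of corticotropin, read 0.74 and 2.08 in wild type and 1.81 and 3.58 in knock-down, and its groups overlapped. Prl, encoding prolactin, read -1.37 and 0.89 in wild type and 1.57 on the 1 knock-down array that measured it. Amy1, a salivary amylase gene also expressed elsewhere, had the lowest difference, -0.53, and the luteinising hormone gene Lhb differed by 0.03. The summed linear signal of its 11 genes measured on all arrays, as log2, was 2.01 and 3.40 in wild type and 3.81 and 4.96 in knock-down. Without wild type array 1 the list's median was 1.02, and without wild type array 2 it was 3.05. Whether RNA of other tissues entered these samples was not tested.

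Genes of midbrain dopaminergic neurons also had higher values in the knock-down, and this list was drawn up after the values were seen. Of 16 tested, 14 had a difference above 0, with a median of 0.53, and 9 were higher on both knock-down arrays. Slc6a3, the dopamine transporter, read -2.58 and -2.48 in wild type and -1.44 and -1.25 in knock-down, a difference of 1.19 ± 0.28 (SE; limma adjusted p = 0.411). Chrna6, a nicotinic receptor subunit of dopaminergic neurons, read -3.68 and -4.19 against -2.88 and -2.68, a difference of 1.16 ± 0.19 (limma adjusted p = 0.411). Slc18a2, the vesicular monoamine transporter, read -1.99 and -2.04 against -0.97 and -1.30, a difference of 0.88 ± 0.26. In these 3 the arrays of a genotype lay near each other and the groups were well apart, unlike in the kallikreins. Ret, a receptor of neurotrophic factors, differed by 0.75 ± 0.16, and the transcription factor gene Lmx1a by 0.76 ± 0.30. Foxa2, a regulator of the floor plate and of dopaminergic fate, was well above background only in knock-down. It read -6.96 and -6.84 in wild type and -5.26 and -5.07 in knock-down, a difference of 1.73 ± 0.49 with a 95% interval from 0.55 to 2.91. Its relative Foxa1 read -5.19 and -5.36 against -3.98 and -4.68.

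Th, the rate-limiting enzyme of dopamine synthesis, differed by 0.40 ± 0.37 (SE) and was higher on both knock-down arrays. Smaller or opposite differences were found for Nr4a2, a transcription factor gene of these neurons, at 0.01, Ddc, the next enzyme in the pathway, at -0.18 and Aldh1a1, an aldehyde dehydrogenase gene, at -0.24. Over all settings tried the median of the dopaminergic list lay between 0.40 and 0.71, including 0.69 without wild type array 1. The settings reuse the arrays whose values were seen when the list was drawn up, so this range is no independent support. General neuron markers had a median of 0.02 over 20 genes, from -0.21 for Map2 to 0.57 for Slc17a6, the vesicular glutamate transporter of thalamus and midbrain. Slc17a6 read 0.44 and 0.10 in wild type and 0.95 and 0.74 in knock-down. The summed neuron markers given above overlapped between the genotypes, while Slc17a6 did not.

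**Figure D5:**
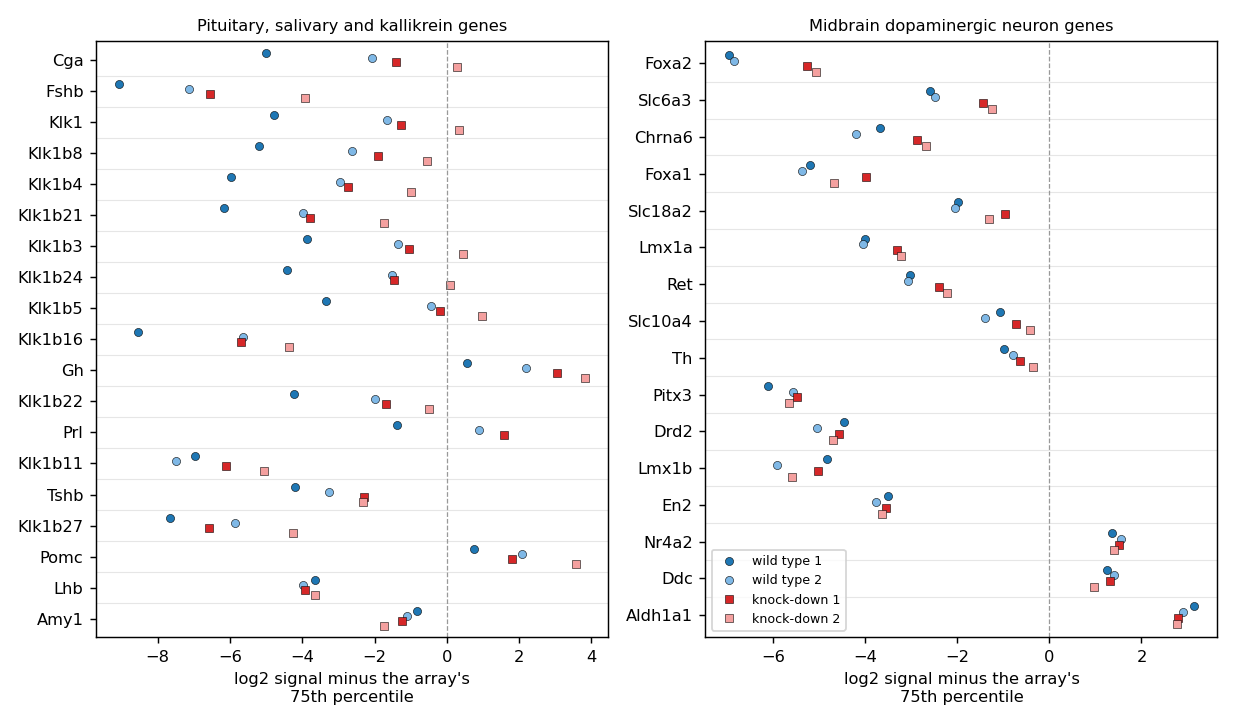
Log2 level on each of the 4 arrays of the pituitary, salivary and kallikrein genes (left) and the dopaminergic neuron genes (right), each ordered by their difference, circles for wild type and squares for knock-down. On the left wild type array 1 lies far below wild type array 2 for most genes, as for Klk1 (-4.78 and -1.65). On the right the wild type arrays lie close for Slc6a3 (-2.58 and -2.48) and less close for Chrna6 (-3.68 and -4.19).

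The choroid plexus and ependymal list split between its members. Kcnj13, a potassium channel of the choroid plexus, read -0.50 and -0.73 in wild type and -0.23 and 0.39 in knock-down, a difference of 0.69 ± 0.29 (SE). The water channel gene Aqp1 read -2.32 and -1.90 against -1.60 and -1.26, a difference of 0.67 ± 0.23 (limma adjusted p = 0.542). Both were higher on both knock-down arrays, whereas Ttr, encoding the choroid plexus protein transthyretin, differed by -0.08 and the ciliary gene Foxj1 by 0.06. The lowest difference was -0.16, that of Rarres2. The list's median was 0.12 over 12 genes, and knock-down array 2 was the highest for 7 of them. Lymphocyte markers had a median of 0.07 over 13 genes, which was -0.20 without wild type array 1 and -0.11 without knock-down array 2. They reached from -1.36 for Cd8a, above background on 1 knock-down array, to 0.75 for Cd3g, above background on 1 wild type array.

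Several genes with small p in the upward direction belong to neurons or to none of the lists. Kcnb2, a potassium channel gene, read -4.75 and -4.72 in wild type and -3.90 and -4.03 in knock-down, a difference of 0.77 ± 0.16 (SE; limma adjusted p = 0.411). Ttc39a read -3.61 and -3.63 against -3.10 and -2.87, a difference of 0.64 ± 0.13, but 1 of its other probes pointed the other way. Arr3, the cone arrestin gene, read -3.37 and -3.95 against -2.43 and -2.65, a difference of 1.12 ± 0.24. The protocadherin Pcdha9, a neuronal adhesion gene, read -2.72 and -2.62 against -2.16 and -1.98. All 6 tested protocadherin alpha genes were higher on both knock-down arrays, with a median of 0.56; they share exons, so their probes may not be independent, and this family was singled out after its values were seen. Of 5 tested Xlr3, Xlr4 and Xlr5 genes, X-linked genes of near-identical copies likewise singled out, 3 were higher on both knock-down arrays, with a median of 1.0. Xlr4b read -1.76 and -2.55 in wild type and -0.69 and -1.32 in knock-down.

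Above background only in the knock-down were 24 of the 17915 tested genes with a symbol, beside 47 only in wild type. Alpk2 was at least 1.73-fold higher, reading -9.07 and -8.93 in wild type and -5.80 and -6.01 in knock-down, and had an adjusted limma p of 0.168. Clrn2, at least 2.66-fold higher, read -7.20 and -6.82 against -5.71 and -4.84. Clca3a2 was at least 2.11-fold and Smc1b at least 1.53-fold higher. These bounds allow for undetected wild type signal but leave out the spread between arrays. The lower 95% limits of the log2 differences were 2.56 for Alpk2, 0.78 for Clrn2, 0.56 for Clca3a2 and 0.15 for Smc1b. In all 4 the knock-down signals were themselves dim, at levels of -4.84 and below. A gene was tested if 1 group was above background, so their p-values set knock-down signal against undetected wild type signal. With only features well above background on all 4 arrays, which leaves these genes out, the smallest adjusted limma p was 0.51. Alpk2 passed an adjusted p of 0.05 when arrays were quantile normalised (limma adjusted p = 0.00858) or centred on their medians (adjusted p = 0.0178), and was the only gene to do so in those fits. Its adjusted limma p ranged from 0.00858 to 0.855 over the settings tried.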

How the data were processed

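RNA of 4 microglia samples, 2 per genotype, was measured on 1-colour arrays. The authors deposited scanner files of linear fluorescence intensity after background subtraction and spatial detrending, written by Agilent Feature Extraction 11.5.1.1 per the file headers (9.1 per the submitters' processing notes). The same files, per the file headers, hold yes or no marks for each spot (other values). Processed log2 values, deposited by the authors as a table per array, served as an alternative.

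Levels were log2 intensity minus the array's 75th percentile of non-control spots. Marked spots were left out. A probe was kept if the software called it well above background throughout 1 or more of the slide's 4 groups; a gene took its brightest kept probe. Probes were named through RefSeq accessions. Differences, SE and two-sided p came from limma 3.58.1 (R 4.3.3), fitted to the 8 arrays of the slide without covariates, with Benjamini-Hochberg adjustment over all tested features. The script was tested on simulated data. Arrays give no counts; their number limits the precision.

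Members, lists and tests were chosen with earlier results of these data known. Named genes were Zeb1 and Zeb2; among genes above background on all 4 arrays without overlap the 10 highest and 10 lowest differences and the 6 smallest p each way; the 5 smallest p above background in 1 genotype only; and in each list the extremes, the smallest p and defining members. Predicted genes, Rik clones and chemosensory receptors were not named. Other genes named were chosen after their values were seen. The motif search and list descriptions used no test.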

Additional observations from a re-analysis of the deposited data

How the results depend on the processing

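Of the alternatives tried, quantile normalisation moved the median of all genes from -0.07 to 0.01 and centring arrays on their median moved it to 0.12. Of the genes at an unadjusted limma p under 0.05, 86.9% were lower as reported, 70.3% after quantile normalisation and 67.0% after median centring. Each of these fits called 1 gene, Alpk2, at an adjusted limma p of 0.05, and the genes higher at an unadjusted p under 0.05 numbered 674 and 897 in place of 348. They also turned the median of long noncoding RNAs to 0.0105 and 0.0577, and the Zeb2 difference to 0.00522 and 0.16. The Zeb2 difference was 0.0235 as a mean over its probes. Without a filter on dim probes, 530 genes were higher at an unadjusted p under 0.05.

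Leaving out each array in turn gave 0 to 3 calls. The 3, without wild type replicate 2, were S100a7l2 and 2 unnamed accessions, which then rest on wild type replicate 1 alone, assumed to vary like the other groups. Genes lower at an unadjusted limma p under 0.05 then numbered 1026 to 2478, and genes higher 266 to 401; Zeb1 ranged from -0.21 to 0.47 and Zeb2 from -0.14 to 0.0872.

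With the replicate block the smallest adjusted limma p was 0.0722 and 0 genes were called; with slide column as a block it was 0.112. The differences between replicates 1 and 2 of both genotypes correlated at 0.171 across genes, but with 2 pairs the numbers are not shown to pair the arrays. List and class medians stayed within the spread of the replicates in 514 recomputations and moved further in 46. Normexp background correction used median spot signals, an alternative added after seeing the data, because mean signals are not used here.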
